A study of Mus musculus with 78 samples.

Results

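The collagen genes were taken as every gene of the array's platform annotation whose symbol is Col, digits, a and digits. This gave 42 genes with 68 probe sets among 17097 named genes, and the probe set with the highest mean over all 78 arrays stood for each gene. By the chains they encode they were sorted into 11 fibrillar collagen genes, 6 type IV (basement membrane) collagen genes and 25 others. Of the 42, 27 lay above the array median on at least 4 arrays and were tested: 8 of 11 fibrillar, 6 of 6 type IV and 13 of 25 other genes. The 15 remaining genes had mean levels of at most 4.04 on the log2 scale, and the largest mean difference between arteries among them was 0.87, for Col12a1 in atorvastatin mice at 48 h.

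RNA was flushed from the inner wall of both common carotid arteries, the left (LCA) and the right (RCA), in 39 mice and measured on Affymetrix arrays, 1 array per artery. Every mouse had undergone partial ligation of the LCA, so each RCA is the artery opposite an operated one and no mouse was without surgery. Mice received vehicle (mice 1 to 5 at each time) or atorvastatin, an inhibitor of cholesterol synthesis, by mouth at 10 mg/kg/day (mice 6 to 10 at each time), starting 2 days ahead of the operation; the arteries were collected 12 h, 24 h, 48 h or 2 weeks after it. Each treatment and time had 5 mice, except 4 (mice 6 to 9) for atorvastatin at 48 h. The sources used here do not give the make-up of the vehicle or the strain, sex and age of the mice.

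Collagens are triple-helical proteins of the extracellular matrix. Fibrillar collagens assemble into the fibrils that carry tension in the arterial wall, where types I and III are the main ones and are made largely by smooth muscle cells and fibroblasts. Type IV collagen forms the sheet-like network of the basement membrane under the endothelium and around each smooth muscle cell. Its 6 chains are encoded by gene pairs that lie head to head: Col4a1 with Col4a2, Col4a3 with Col4a4 and Col4a5 with Col4a6. The network of Col4a1 and Col4a2 chains is present in nearly all basement membranes, whereas that of Col4a3, Col4a4 and Col4a5 chains is best known from the kidney glomerulus. The other collagens include the multiplexins Col15a1 and Col18a1, the beaded-filament collagen type VI, the short-chain collagen type VIII of vascular intima, the fibril-associated collagens and the transmembrane collagens.

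Promoters are shown for Col4a1, Col4a4 and Col4a5 because their genes changed in opposite directions and at different times, and for Col3a1 as a fibrillar gene that rose late. Each window runs from 250 bases before to 50 bases after a transcription start in RefSeq (GRCm38.p6), printed 5′ to 3′ on the gene's strand. Capitals mark matches, on either strand, to the TATA box TATAAA, the CCAAT box CCAAT, the GC box GGGCGG, the AP-1 site TGANTCA and the CArG box.
Col4a1 (chr8:11312777-11313076, minus strand): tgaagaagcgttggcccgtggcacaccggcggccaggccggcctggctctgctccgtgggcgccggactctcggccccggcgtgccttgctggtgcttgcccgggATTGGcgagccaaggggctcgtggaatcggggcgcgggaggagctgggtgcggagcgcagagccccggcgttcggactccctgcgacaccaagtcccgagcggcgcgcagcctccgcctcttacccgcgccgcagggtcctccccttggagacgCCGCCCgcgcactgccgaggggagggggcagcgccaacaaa
Col4a4 (chr1:82586800-82587099, minus strand): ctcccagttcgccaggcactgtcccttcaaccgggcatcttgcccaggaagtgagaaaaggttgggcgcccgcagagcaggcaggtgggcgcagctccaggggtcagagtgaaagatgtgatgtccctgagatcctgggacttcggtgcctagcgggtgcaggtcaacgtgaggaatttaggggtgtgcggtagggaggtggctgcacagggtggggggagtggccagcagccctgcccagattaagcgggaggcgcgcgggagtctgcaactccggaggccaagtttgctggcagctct
Col4a5 (chrX:141475169-141475468, plus strand): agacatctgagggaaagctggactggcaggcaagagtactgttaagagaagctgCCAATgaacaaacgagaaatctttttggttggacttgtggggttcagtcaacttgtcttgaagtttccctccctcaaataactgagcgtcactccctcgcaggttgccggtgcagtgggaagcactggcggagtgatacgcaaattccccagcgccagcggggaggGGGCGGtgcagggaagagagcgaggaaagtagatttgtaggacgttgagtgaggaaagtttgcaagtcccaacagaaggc
Col3a1 (chr1:45311288-45311587, plus strand): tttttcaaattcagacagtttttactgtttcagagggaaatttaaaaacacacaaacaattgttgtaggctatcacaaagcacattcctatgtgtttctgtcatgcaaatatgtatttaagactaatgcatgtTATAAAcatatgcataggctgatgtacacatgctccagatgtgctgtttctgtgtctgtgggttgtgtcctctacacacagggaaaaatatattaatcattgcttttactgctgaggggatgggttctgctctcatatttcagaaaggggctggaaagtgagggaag
The Col4a1 window held 1 CCAAT box and 1 GC box, the Col4a5 window 1 of each, the Col3a1 window 1 TATA box and the Col4a4 window none of these motifs. The starts of Col4a1 and Col4a2 lie 21 bases apart on opposite strands, so their windows overlap, and those of Col4a5 and Col4a6 lie 1343 bases apart. Windows were found for 33 of the 42 collagen genes, 36 in all. Of these, 22 held a GC box, 13 a CCAAT box, 5 a TATA box, 1 an AP-1 site and 1 a CArG box. Among all 32851 windows the shares were 35.7% for the GC box, 37.4% for the CCAAT box, 13.6% for the TATA box, 7.8% for the AP-1 site and 1.6% for the CArG box. A match is a description of the letters in the window and not evidence of binding. Windows of some genes hold more than one motif.

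All levels are the authors' log2 values, in which a difference of 1 is a doubling. A level is compared between arrays for the same gene and not between genes. Differences are LCA minus RCA within a mouse, and a gene is said to have risen or fallen where limma's moderated test over all 11344 tested genes gave a Benjamini-Hochberg adjusted p under 0.05. All 12 endothelial markers were measured, at a median percentile of 95.3 of the named genes in the RCA and 94.2 in the LCA. This rank runs over different probes and serves only as a check of the labelled tissue. In bulk RNA, fewer cells of a type and less RNA per cell cannot be told apart. A few mice stand apart among the collagens. In vehicle mouse 1 at 2 weeks the RCA was low in Col1a1 and Col3a1, in vehicle mouse 2 at 2 weeks most collagen differences were small, and in vehicle mouse 4 at 48 h the mean neutrophil marker difference was -0.11, against 4.69 to 5.59 in the remaining mice of that group.

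Collagen genes changed little in number at 12 and 24 h and broadly at 2 weeks. In vehicle mice 1 of 27 tested genes had changed at 12 h, where 2.39% of all tested genes had, 4 at 24 h (14.3% of all genes), 10 at 48 h (36.2%) and 20 at 2 weeks (27.8%). The members called make 3.70%, 14.8%, 37% and 74.1% of the 27. The direction also turned: 0 rose and 1 fell at 12 h (all genes 1.31% and 1.08%), 1 rose and 3 fell at 24 h (7.19% and 7.09%), 3 rose and 7 fell at 48 h (20.8% and 15.4%), and 18 rose and 2 fell at 2 weeks (15.5% and 12.3%). Without mouse 3 at 24 h 0 rose and 1 fell, and without mouse 5 0 rose and 2 fell. At 48 h 1 rose and 5 fell without mouse 5, and 4 rose and 8 fell without mouse 4. Thus the share of collagen genes called in either direction was close to that of all genes until 48 h and lay above it at 2 weeks. By direction, 11.1% of the 27 rose and 25.9% fell at 48 h. LCA levels lay wholly below RCA levels for 4 of the 27 genes at 12 h (1.24% of all genes), 5 at 24 h (6.18%) and 5 at 48 h (6.59%). They lay wholly above for 0 at 12 h (1.73%), 0 at 24 h (6.44%) and 1 at 48 h (5.81%). The 18 include Col2a1, which passed the filter through LCAs at 2 weeks only and so had to be high there; without it 17 of 26 rose and 2 fell (73.1%).

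The course under atorvastatin was alike in shape, with a smaller share called at 48 h. The members called make 3.7%, 11.1%, 18.5% and 77.8% of the 27 at 12 h, 24 h, 48 h and 2 weeks. At 48 h that share lay below the 31.8% of all genes, and 0 were called when only the compared mice were fitted. LCA levels lay wholly below RCA levels for 1 gene at 12 h (1.05% of all genes), 1 at 24 h (5.38%) and 2 at 48 h (8.92%). At 12 h 0 genes rose and 1 fell (all genes 0.758% and 0.926%, 1.68% together; 0 fell without mouse 7), at 24 h 0 rose and 3 fell (7.29% and 5.80%, 13.1% together), at 48 h 2 rose and 3 fell (16.6% and 15.2%, 31.8% together) and at 2 weeks 19 rose and 2 fell (14.5% and 15.4%, 29.9% together), or 18 and 2 of 26 without Col2a1. The 20 genes called in vehicle mice at 2 weeks were all called in the same direction in atorvastatin mice, which added Col16a1, a fibril-associated collagen (0.72, SE 0.21, adjusted p = 0.00836; lost without mouse 7 or 10). At 48 h 4 genes were called in both treatments, 40% of the 10 in vehicle and 80% of the 5 in atorvastatin mice. Levels of the arteries did not overlap, LCA above RCA, for 6 of the 27 genes in vehicle mice at 2 weeks (11.1% of all genes) and for 18 under atorvastatin (13.6%). A single LCA within the RCA range ends such a separation. In vehicle mice the lowest LCA of Col1a1 (8.37), Col4a1 (10.41) and Col4a5 (5.01) was that of mouse 2. The gap between the treatments in this count was not tested. LCA levels lay wholly below RCA levels for 2 genes in each (9.19% and 13.8% of all genes), Col4a3 and Col4a4.

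**Figure D1:**
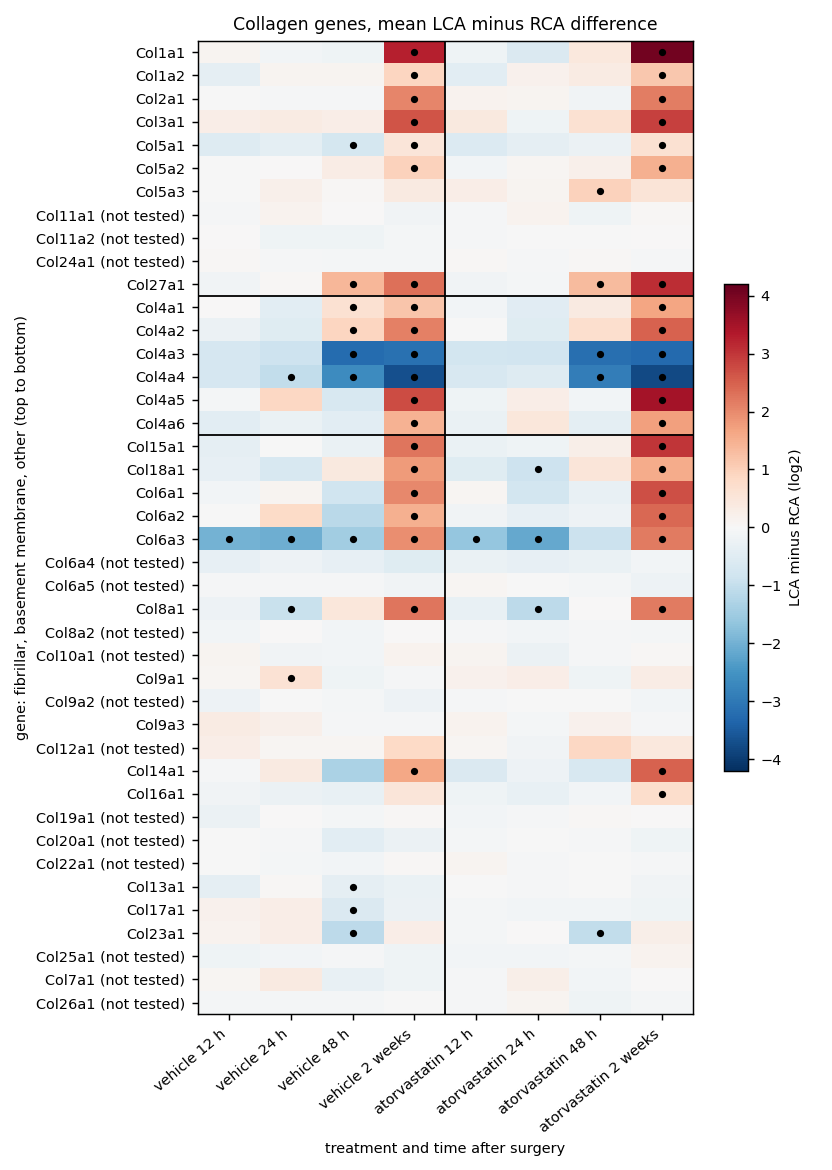
Mean LCA minus RCA difference (log2) of the collagen genes, 27 of them tested, in rows by class with the 15 genes not tested, for the 8 combinations of treatment and time in columns, with black dots on called differences. At 2 weeks 18 genes in vehicle and 19 in atorvastatin mice were higher in the LCA, and Col4a3 and Col4a4 were lower in both.

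Among the fibrillar collagens, 7 of 8 tested genes had risen at 2 weeks in each treatment and none had fallen. The 7 include Col2a1, which passed the filter through LCAs at 2 weeks only and so had to differ. Without it 6 of 7 had risen, with median differences of 0.96 in vehicle and 1.49 in atorvastatin mice. Over all 11 members the medians were 0.91 and 1.14, against medians over all tested genes of -0.01 and -0.03. At 12 and 24 h no fibrillar gene was called in either treatment. At 48 h Col27a1 had risen and Col5a1 had fallen in vehicle mice, and Col27a1 and Col5a3 had risen in atorvastatin mice.

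Col1a1 encodes the main chain of type I collagen, the chief fibrillar collagen of the adventitia and media. In vehicle mice 1 to 5 at 2 weeks its LCA levels were 11.66, 8.37, 10.76, 11.98 and 10.34, and its RCA levels were 3.74, 7.31, 8.54, 9.01 and 8.13. The LCA was higher in every mouse, while the lowest LCA, of mouse 2, lay within the range of the RCAs. The difference averaged 3.27 ± 2.68 (SD, n = 5; SE 0.62, adjusted p = 9.64e-05). This SE comes from the spread shared by all 8 mouse groups, whereas the SD is that of these 5 mice. The RCA of mouse 1 lay below the array medians, and without this mouse the difference was 2.11 (SE 0.54, adjusted p = 0.00417). In atorvastatin mice 6 to 10 the LCA levels were 10.75, 11.70, 10.64, 11.11 and 11.57, and the RCA levels were 7.60, 7.45, 6.59, 6.76 and 7.04. Here the arteries did not overlap, and the difference was 4.07 ± 0.54 (SD, n = 5; SE 0.62, adjusted p = 2.93e-06), or 16.8-fold.

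Before 2 weeks Col1a1 differed between arteries in either direction, mouse by mouse. At 24 h the differences of vehicle mice 1 to 5 were 1.83, -1.81, -0.50, 1.21 and -1.32. The mean of the 7 tested fibroblast markers differed between the arteries of the same mice by 0.74, -0.82, 0.07, 0.25 and -0.33. Mice 1 and 4, high for Col1a1, were the highest for these markers, and mice 2 and 5 the lowest for both; their part in the Col1a1 differences was not tested.

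Col3a1, the chain of type III collagen, rose alongside Col1a1. Vehicle mice at 2 weeks had LCA levels of 11.75, 10.21, 11.45, 12.11 and 11.18 and RCA levels of 5.51, 9.03, 10.04, 9.94 and 8.95. All LCAs were above all RCAs, and mouse 1 again had the lowest RCA. The difference was 2.64 ± 2.06 (SD, n = 5; SE 0.59, adjusted p = 0.000754), and 1.75 (SE 0.57, adjusted p = 0.0267) without mouse 1. In atorvastatin mice every difference lay close to the mean: 2.62, 3.23, 2.50, 2.83 and 3.24, averaging 2.88 ± 0.34 (SD, n = 5; SE 0.59, adjusted p = 0.00023).

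Col1a2, which encodes the other chain of type I collagen, was measured by a single probe set with a mean level of 4.47, near the array medians. Vehicle mice at 2 weeks differed by 1.56, -0.54, 1.18, 1.61 and 0.74. Mouse 2 alone was lower in the LCA, and the mean of 0.91 ± 0.88 (SD, n = 5) was called (SE 0.25, adjusted p = 0.00469), a call lost when only these mice were fitted. In atorvastatin mice the LCA levels of 5.41, 5.66, 4.99, 5.33 and 5.39 lay above all RCA levels, 3.93, 4.14, 3.89, 4.51 and 4.63, with a difference of 1.14 ± 0.35 (SD, n = 5; SE 0.25, adjusted p = 0.000422).

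Col27a1 and Col2a1 are fibrillar collagens best known from cartilage. Col27a1 had risen by 48 h in both treatments. Its LCA levels in vehicle mice at 48 h were 6.66, 5.26, 4.53, 4.68 and 6.29 and its RCA levels 4.08, 4.30, 4.25, 4.03 and 3.74. Every LCA lay above every RCA, with mice 1 and 5 the highest, and the difference was 1.41 ± 1.09 (SD, n = 5; SE 0.32, adjusted p = 0.000702). Atorvastatin mice 6 to 9 at 48 h differed by 1.41, 0.66, 0.92 and 2.34, a mean of 1.33 ± 0.74 (SD, n = 4; SE 0.35, adjusted p = 0.0039). Both calls at 48 h were lost when only the compared mice were fitted, and that under atorvastatin also without mouse 9. At 2 weeks the mean differences of Col27a1 were 2.32 ± 0.79 in vehicle mice (SE 0.32, adjusted p = 4.38e-07) and 3.09 ± 1.01 in atorvastatin mice (SE 0.32, adjusted p = 1.34e-09; SD, n = 5 each). Another probe set of Col27a1 gave smaller differences of the same sign: 0.27 at 48 h and 0.85 at 2 weeks in vehicle mice, and 0.66 and 1.26 in atorvastatin mice.

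Col2a1 lay near the bottom of the measured range in every RCA and in all LCAs up to 48 h, and it passed the filter through LCAs at 2 weeks. For that reason its difference was bound to be large and is given as a description. The LCA levels at 2 weeks were 7.59, 2.76, 4.32, 5.89 and 3.86 in vehicle mice, and mice 1 and 4 were the highest. In atorvastatin mice they were 4.37, 5.62, 4.40, 4.81 and 5.34, with RCA levels from 2.65 to 2.82. Of 7 chondrocyte markers 2 were tested: Acan, the cartilage proteoglycan, rose at 2 weeks by 4.10 and 4.91 in vehicle and atorvastatin mice, and Comp was not called. Their part in the Col2a1 and Col27a1 values was not tested.

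The type V chains help nucleate fibrils of type I collagen. Col5a1 was -0.73 in vehicle mice at 48 h (SE 0.17, adjusted p = 0.00129) and was higher in the LCA at 2 weeks, by 0.52 in vehicle (SE 0.17, adjusted p = 0.0217) and 0.63 in atorvastatin mice (SE 0.17, adjusted p = 0.00479). Without vehicle mouse 1 the difference at 2 weeks was 0.36 (SE 0.19, adjusted p = 0.18), and the call was also lost without mouse 4 or 5. Col5a2 rose at 2 weeks by 0.96 (SE 0.20, adjusted p = 0.000313) and 1.49 (SE 0.20, adjusted p = 2.72e-07). Col5a3 was the fibrillar gene not called at 2 weeks in either treatment, at 0.39 and 0.53. It was called in atorvastatin mice at 48 h (0.97, SE 0.24, adjusted p = 0.00245), and the difference was 0.50 (adjusted p = 0.11) without mouse 8. Another probe set of Col5a3 gave 0.205 in atorvastatin mice at 48 h.

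**Figure D2:**
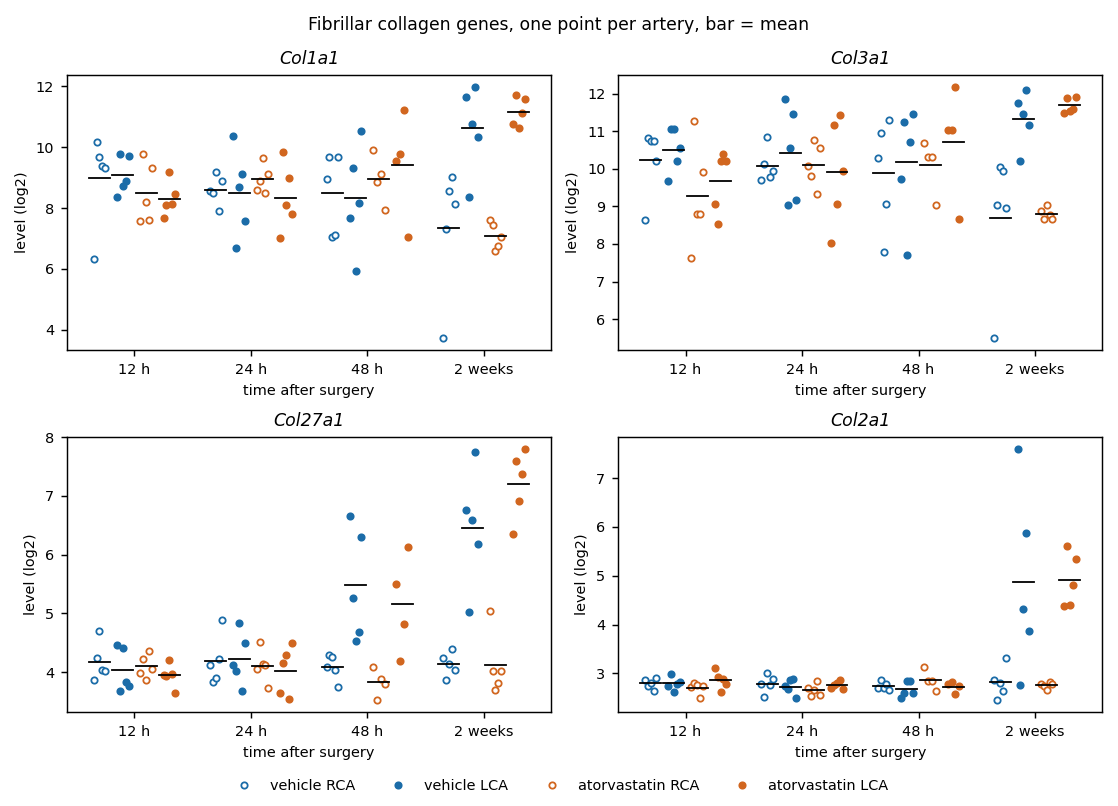
Log2 levels of the fibrillar genes Col1a1, Col3a1, Col27a1 and Col2a1 in each LCA (filled points) and RCA (open points), by treatment and time, with short bars at group means. At 2 weeks the arteries separated for Col3a1 and Col27a1 in both treatments, and the Col1a1 RCA of vehicle mouse 1 stood at 3.74 while the other 4 lay between 7.31 and 9.01.

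The 6 type IV collagen genes split in 2 directions. At 2 weeks Col4a1, Col4a2, Col4a5 and Col4a6 had risen in the LCA and Col4a3 and Col4a4 had fallen, in both treatments. The 4 rises and 2 falls gave a median over the 6 genes of 1.33 in vehicle and 1.69 in atorvastatin mice. At 48 h in vehicle mice Col4a1 and Col4a2 had risen and Col4a3 and Col4a4 had fallen; in atorvastatin mice the 2 falls alone were called. Levels of Col4a3 were already lower in all 5 LCAs than in any RCA at 12 h in vehicle mice (-0.95, -0.62, -0.44, -0.96 and -0.59), a mean of -0.71 that was not called (SE 0.36, adjusted p = 0.389).

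Col4a3 had fallen by 48 h. In vehicle mice its LCA levels then were 4.74, 7.57, 5.36, 7.39 and 4.31 and its RCA levels were 9.07, 9.20, 9.09, 8.94 and 9.29. Mice 2 and 4 kept LCA levels above 7, the others were at 5.36 or below, and no LCA reached an RCA. The mean difference was -3.24 ± 1.57 (SD, n = 5; SE 0.36, adjusted p = 5.54e-08), a 9.47-fold lower level. In atorvastatin mice 6 to 9 the differences were -4.33, -1.25, -2.32 and -4.73, again with a pair of mice (7 and 8) that fell less, and the mean was -3.16 ± 1.65 (SD, n = 4; SE 0.40, adjusted p = 9.53e-07). Vehicle mice at 2 weeks differed by -3.68, -2.53, -3.0, -3.60 and -2.83, which is more even than at 48 h. The mean was -3.13 ± 0.50 in vehicle (SE 0.36, adjusted p = 1.72e-08) and -3.27 ± 0.61 in atorvastatin mice (SE 0.36, adjusted p = 5.47e-09; SD, n = 5 each).

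Col4a4 followed Col4a3 in every mouse, with the same sign in all mice of all 8 treatment and time groups. At 24 h its difference in vehicle mice was -1.06, -0.64, -1.58, -0.91 and -0.90, a mean of -1.02 ± 0.35 (SD, n = 5) that was called (SE 0.32, adjusted p = 0.028). That call was lost without mouse 1, 3, 4 or 5, and without pairing the arteries of a mouse. It was also lost with the number in the title code as a block (adjusted p = 0.0598). With the 3′ to 5′ signal ratio of Gapdh, a sign of RNA quality, as a covariate it was lost too (adjusted p = 0.153). At 48 h the vehicle differences were -3.35, -1.43, -3.11, -1.32 and -3.93 (SE 0.32, adjusted p = 3.1e-07), with mice 2 and 4 once more the smallest. By 2 weeks the LCA levels were 4.59, 6.38, 5.15, 5.31 and 5.75 against RCA levels of 8.70, 9.16, 9.19, 9.29 and 9.32. The fall averaged -3.69 ± 0.55 (SD, n = 5; SE 0.32, adjusted p = 4.78e-11), a 12.9-fold lower level and the largest difference among the 27 collagen genes in vehicle mice by this fit. In atorvastatin mice at 2 weeks the mean was -3.80 ± 0.89 (SD, n = 5; SE 0.32, adjusted p = 2.15e-11). The falls of Col4a3 and Col4a4 in atorvastatin mice at 48 h were lost when only the compared mice were fitted.

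The falls at 48 h moved with fibroblast markers in part of the mice. The mean fibroblast marker difference was -2.32, -0.39, -1.98, 0.22 and -2.07 in vehicle mice 1 to 5, and 4 of the 7 markers were called lower. It was -1.87, 0.42, 0.15 and -1.39 in atorvastatin mice 6 to 9. At 48 h Col4a3 and Col4a4 fell less in vehicle mice 2 and 4 and atorvastatin mice 7 and 8. These mice then had the highest fibroblast marker differences of their groups. At 2 weeks the highest were in vehicle mouse 1 (0.68) and atorvastatin mouse 7 (-0.39), which had the deepest mean falls of Col4a3 and Col4a4 (-3.89 and -4.37). The smallest falls then were in vehicle mouse 2 (-2.65) and atorvastatin mouse 8 (-2.41), with marker differences of -0.15 and -1.78. The part of fibroblasts in the type IV falls was not tested. Leukocyte markers rose at 48 h as well. Of 9 macrophage markers 8 rose in vehicle and 9 in atorvastatin mice (medians 2.03 and 2.29), and all 4 tested neutrophil markers rose in each (medians 4.12 and 4.14). The mean macrophage marker difference was 3.08, 1.47, 2.81, 0.67 and 2.79 in vehicle mice 1 to 5, lowest in mice 2 and 4. In atorvastatin mice 6 to 9 it was 2.57, 1.51, 3.82 and 2.95, lowest in mouse 7 and highest in mouse 8. Of 12 endothelial markers 2 were higher and 5 lower at 48 h in vehicle mice (median -0.41), and 2 higher and 7 lower in atorvastatin mice (median -0.73). At 2 weeks 3 were higher and 5 lower in each treatment (medians -0.41 and -0.47). The part of these cells in the collagen changes was not tested.

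Col4a1 and Col4a2, the common basement membrane chains whose promoter windows overlap, rose together. In vehicle mice at 48 h Col4a1 differed by 0.59, 0.24, 0.63, 0.55 and 1.21 (SE 0.17, adjusted p = 0.00408), higher in the LCA of every mouse. Col4a2 differed by 1.22, 0.44, 1.31, 0.24 and 1.34 (SE 0.29, adjusted p = 0.0139), and mice 2 and 4 had the smallest rises. The Col4a1 call was lost without mouse 5, and that of Col4a2 without mouse 1, 3 or 5. By 2 weeks the Col4a1 LCA levels were 11.55, 10.41, 11.22, 11.57 and 11.65 and the RCA levels 10.18, 10.08, 9.75, 10.03 and 10.46. Mouse 2 rose least and its LCA lay within the RCA range, and the mean difference was 1.18 ± 0.49 (SD, n = 5; SE 0.17, adjusted p = 2.08e-06). Atorvastatin mice had LCA levels of 11.74, 11.65, 11.42, 11.73 and 11.66 and RCA levels of 10.24, 9.71, 10.08, 9.96 and 10.00, which do not overlap (1.64 ± 0.24, SD, n = 5; SE 0.17, adjusted p = 3.15e-09).

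For Col4a2 the vehicle mice at 2 weeks differed by 3.0, -0.01, 2.31, 2.83 and 2.43. The other 4 mice rose by 2.31 or more whereas mouse 2 showed no rise, and the mean was 2.11 ± 1.22 (SD, n = 5; SE 0.29, adjusted p = 5.62e-07). In atorvastatin mice the differences were 2.42, 2.95, 1.77, 2.97 and 2.34, a mean of 2.49 ± 0.50 (SD, n = 5; SE 0.29, adjusted p = 2.09e-08).

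Col4a5 and Col4a6, the head-to-head pair on the X chromosome, were called at 2 weeks only among the 4 times tested. At 24 h Col4a5 was higher in the LCA of all 5 vehicle mice, by a mean of 0.88 that was not called (SE 0.38, adjusted p = 0.115). Its other probe set gave -0.07 there. At 2 weeks Col4a5 had LCA levels of 8.87, 5.01, 8.56, 9.63 and 8.70 in vehicle mice against RCA levels of 4.10, 5.06, 5.77, 6.35 and 5.81. Mouse 2 did not differ and the other 4 LCAs lay above all RCAs, with a mean difference of 2.74 ± 1.75 (SD, n = 5; SE 0.38, adjusted p = 5.91e-07). In atorvastatin mice every LCA (8.85, 8.97, 9.35, 8.97 and 9.49) lay above every RCA (5.11, 4.89, 6.52, 6.02 and 5.69), and the difference was 3.48 ± 0.56 (SD, n = 5; SE 0.38, adjusted p = 4.63e-09). Col4a6 rose by 1.47 (SE 0.38, adjusted p = 0.00348) and 1.74 (SE 0.38, adjusted p = 0.000556) in vehicle and atorvastatin mice, the former being 1.11 (SE 0.41, adjusted p = 0.0514) without mouse 1. Col4a5 and Col4a6 thus both rose at 2 weeks, when Col4a3 and Col4a4 were lower.

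**Figure D3:**
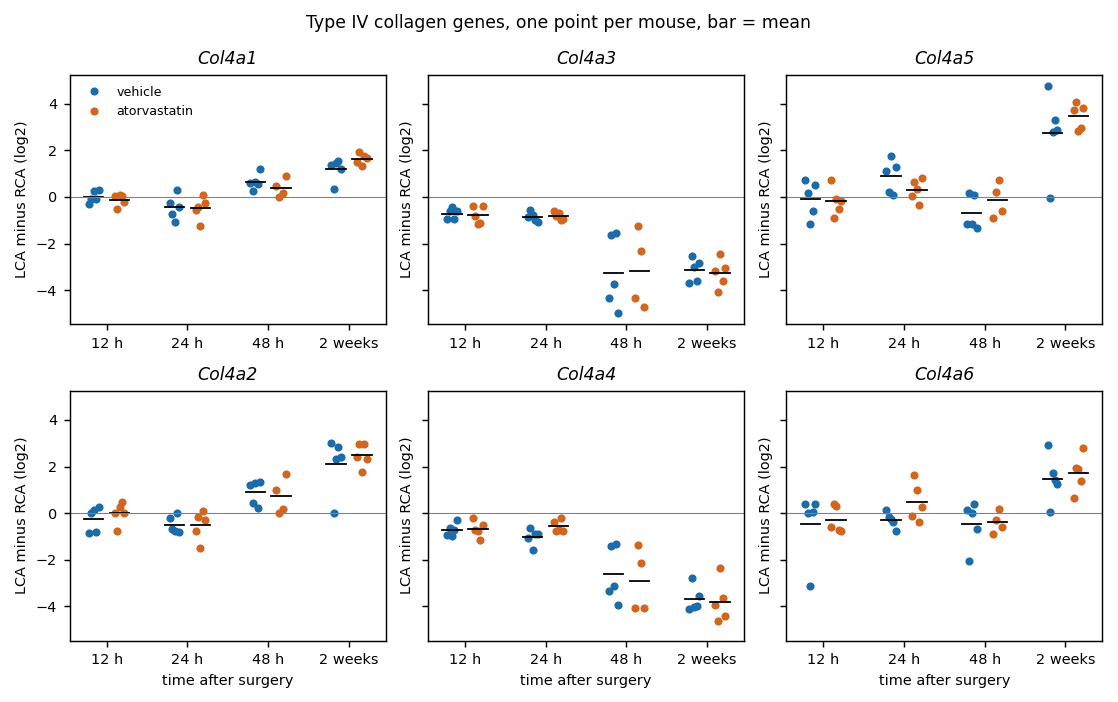
LCA minus RCA difference (log2) of the 6 type IV collagen genes in each mouse, by treatment and time, with short bars at group means. Col4a3 and Col4a4 lie below 0 in every mouse at 48 h and 2 weeks, and vehicle mouse 2 at 2 weeks is the lowest point of its group for Col4a1, Col4a2 and Col4a5.

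Of the 13 tested other collagens, 7 had risen at 2 weeks in vehicle mice and 8 in atorvastatin mice, and none had fallen. Their medians were 1.5 and 1.57, and over all 25 genes, including the 12 not tested, 0.04 and 0.06. At 48 h in vehicle mice none had risen and 4 had fallen, of which 3 were transmembrane collagens. These were Col13a1 (-0.38, SE 0.13, adjusted p = 0.0222), Col17a1 (-0.61, SE 0.19, adjusted p = 0.0111) and Col23a1 (-1.09, SE 0.28, adjusted p = 0.00236; lower in 3 of 5 mice). None of these calls held under every omission of 1 mouse: Col13a1 was lost without mouse 1, 3 or 5, Col17a1 without mouse 3 or 4 and Col23a1 without mouse 5. Col13a1 and Col17a1 also have mean levels of 4.30 and 4.22, below the array medians. Col23a1 was also lower in atorvastatin mice at 48 h (-1.02, SE 0.31, adjusted p = 0.0119), where it was -0.61 (adjusted p = 0.214) without mouse 6 and -0.79 (adjusted p = 0.12) without mouse 9.

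Col6a3, the long chain of type VI collagen that links cells to the fibrillar matrix, fell first and rose later. At 12 h, when it was the single collagen gene called, the LCA levels of vehicle mice were 7.18, 7.52, 7.34, 7.14 and 6.16 and the RCA levels 9.70, 8.36, 9.37, 9.56 and 8.24. No LCA reached an RCA, mouse 2 differed least, and the mean was -1.97 ± 0.67 (SD, n = 5; SE 0.37, adjusted p = 0.00152). The mean differences were -2.06 ± 0.52 at 24 h (SE 0.37, adjusted p = 0.000206) and -1.47 ± 0.37 at 48 h (SE 0.37, adjusted p = 0.00203; SD, n = 5 each), again with no overlap. At 2 weeks the sign was opposite: LCA levels were 8.16, 6.26, 7.65, 8.48 and 7.69 and RCA levels 4.85, 6.19, 5.80, 5.60 and 6.03. All LCAs lay above all RCAs, mouse 2 by 0.07 only within the mouse, and the difference was 1.95 ± 1.26 (SD, n = 5; SE 0.37, adjusted p = 8.95e-05). Atorvastatin mice gave -1.63 at 12 h (SE 0.37, adjusted p = 0.0112), a call lost without mouse 7, -2.16 at 24 h (SE 0.37, adjusted p = 0.000127), -0.91 at 48 h (SE 0.41, adjusted p = 0.0903, not called) and 2.19 at 2 weeks (SE 0.37, adjusted p = 1.43e-05).

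Both arteries contributed to this turn of Col6a3. Its mean RCA level in vehicle mice was 9.04 at 12 h, 7.94 at 24 h, 6.72 at 48 h and 5.69 at 2 weeks, while its mean LCA level was 7.07, 5.88, 5.25 and 7.65. The RCA level was lower at each later time, while the LCA level was lowest at 48 h and highest at 2 weeks. In atorvastatin mice the RCA means were 8.55, 7.74, 6.65 and 5.92. The RCA changed over the 4 times for 6 of the 27 collagen genes in vehicle mice (26.8% of all tested genes): Col6a3 (limma F test, adjusted p = 8.14e-09), Col8a1, Col4a2, Col18a1, Col5a1 and Col17a1. In atorvastatin mice it changed for 5 (5.88% of all genes; 3 without mouse 7 at 2 weeks): Col6a3 (adjusted p = 2.12e-06), Col8a1, Col4a1, Col4a2 and Col4a4. The collagen share was below that of all genes in vehicle mice and above it in atorvastatin mice. In these genes the RCA level enters the LCA minus RCA change over time. The F test gives no direction, the times are different mice, and samples are not assigned to batches. Time and batch therefore cannot be told apart in the RCA.

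Col6a1 and Col6a2 encode the short chains of type VI collagen and are neighbours on the same strand. They were not called before 2 weeks. Col6a1 then differed by 4.19, 0.58, 1.01, 2.78 and 1.53 in vehicle mice, with mouse 1 the highest and mouse 2 the lowest (2.02 ± 1.47, SD, n = 5; SE 0.48, adjusted p = 0.00145). In atorvastatin mice the differences were 2.27, 3.13, 1.54, 2.78 and 3.84 and no arteries overlapped (2.71 ± 0.87, SD, n = 5; SE 0.48, adjusted p = 2.95e-05). Col6a2 rose by 1.5 (SE 0.50, adjusted p = 0.0235) and 2.41 (SE 0.50, adjusted p = 0.000302) in vehicle and atorvastatin mice. Without vehicle mouse 1 Col6a2 was 0.81 (SE 0.51, adjusted p = 0.279), its call was also lost without mouse 4, and the Col6a1 call in vehicle mice was lost with the title code as a block.

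Col8a1, a short-chain collagen of vascular intima and media, also changed sign. Vehicle mice at 24 h had LCA levels of 10.20, 10.34, 9.63, 10.32 and 10.02 and RCA levels of 10.80, 11.07, 11.11, 10.94 and 11.23. The LCA was lower without overlap (-0.93 ± 0.40, SD, n = 5; SE 0.23, adjusted p = 0.00634), as it was in atorvastatin mice on average (-1.11, SE 0.23, adjusted p = 0.00125). The vehicle call at 24 h was lost without mouse 3. By 2 weeks the LCA levels were 11.95, 10.72, 11.82, 11.93 and 12.13 and the RCA levels 9.58, 9.64, 9.23, 8.78 and 10.09. Every LCA was now above every RCA, by 2.25 ± 0.77 (SD, n = 5; SE 0.23, adjusted p = 2.39e-09). Under atorvastatin the 5 differences, 2.10, 2.27, 2.21, 2.10 and 2.29, spanned the narrowest range among the collagens shown by mouse, with a mean of 2.20 ± 0.09 (SD, n = 5; SE 0.23, adjusted p = 2.77e-09). Other probe sets of Col8a1 gave larger differences of the same sign. At 24 h they were -1.89 and -1.24 in vehicle and -1.64 and -1.87 in atorvastatin mice. At 2 weeks they were 3.02 and 3.23 in vehicle and 3.84 and 3.22 in atorvastatin mice.

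The multiplexins, which sit in or beside basement membranes, rose at 2 weeks. Col15a1 had LCA levels of 7.84, 5.11, 6.59, 8.19 and 6.54 and RCA levels of 4.51, 4.70, 4.39, 4.75 and 4.76 in vehicle mice. The arteries did not overlap, and the difference was 2.23 ± 1.25 (SD, n = 5; SE 0.41, adjusted p = 5.58e-05) and 3.0 ± 0.97 in atorvastatin mice (SD, n = 5; SE 0.41, adjusted p = 3.84e-07). Col18a1, whose C-terminal fragment is endostatin, had vehicle differences of 2.42, 0.50, 1.68, 2.53 and 1.82. Mouse 2 again rose least (1.79 ± 0.81, SD, n = 5; SE 0.24, adjusted p = 4.77e-07), and in atorvastatin mice the mean was 1.57 ± 0.32 (SD, n = 5; SE 0.24, adjusted p = 3.86e-06). At 24 h Col18a1 was lower in the LCA in atorvastatin mice (-0.85, SE 0.24, adjusted p = 0.0165), a call lost without mouse 8 and with the mean of its probe sets. In vehicle mice at 24 h it was -0.69, which was not called (SE 0.24, adjusted p = 0.0538). Col14a1, a fibril-associated collagen, rose by 1.64 in vehicle mice at 2 weeks (SE 0.61, adjusted p = 0.0406; higher in 3 of 5 mice) and by 2.48 in atorvastatin mice (SE 0.61, adjusted p = 0.00169). Without vehicle mouse 1 it was 0.73 (SE 0.59, adjusted p = 0.421), and the call was also lost without mouse 4 or 5. Col9a1, a fibril-associated collagen of cartilage, was the single member to rise at 24 h, in vehicle mice (0.61, SE 0.19, adjusted p = 0.0307). Its mean level was 3.91, with 4 arrays above their median, and the call was lost without mouse 2, 3 or 5. Another probe set of Col9a1 gave 0.109 in vehicle mice at 24 h.

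**Figure D4:**
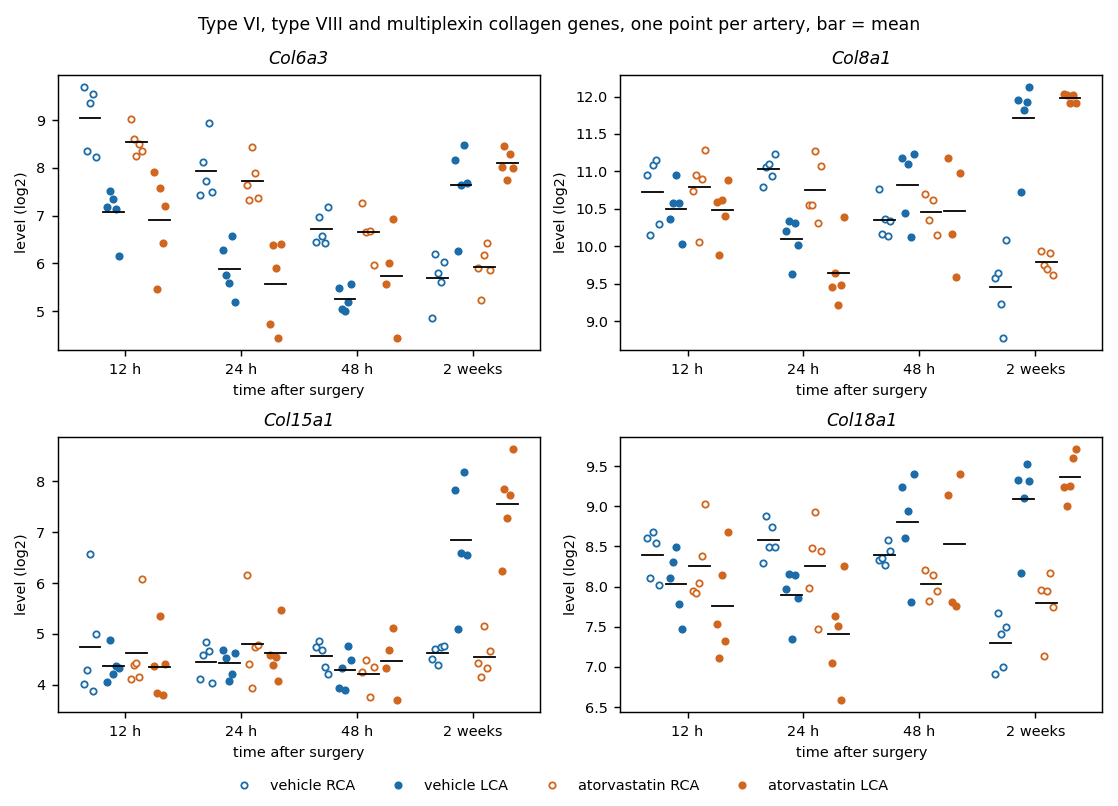
Log2 levels of Col6a3, Col8a1, Col15a1 and Col18a1 in each LCA (filled points) and RCA (open points), by treatment and time, with short bars at group means. Col6a3 lies lower in the LCA at 12 and 24 h and higher at 2 weeks, and its mean RCA level in vehicle mice goes from 9.04 at 12 h to 5.69 at 2 weeks.

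Vehicle mouse 2 at 2 weeks had the smallest rises among the fibrillar and type IV genes. The median of its fibrillar differences over all 11 genes was -0.10, whereas the remaining mice had medians of 0.63 to 1.30. The mean over Col4a1, Col4a2, Col4a5 and Col4a6 was 0.08 against 1.94 to 3.02. Its mean over Col4a3 and Col4a4 was -2.65 against -3.89 to -3.20, so the falls were present in it. Its smooth muscle markers differed by -0.30 on average, against 2.47 to 4.19 in the other 4, while its macrophage markers were higher in the LCA by 4.50. Without this mouse 19 genes rose and 2 fell, with all 20 calls kept; without mouse 1, 14 rose and 2 fell, Col5a1, Col4a6, Col6a2 and Col14a1 losing their calls.

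Markers of other cell types moved with the rises at 2 weeks. All 7 tested smooth muscle markers rose, with medians of 2.40 in vehicle and 3.28 in atorvastatin mice. Their mean level ranged from 5.95 to 10.06 in vehicle LCAs and from 9.19 to 10.16 in atorvastatin LCAs, against 5.41 to 6.53 and 5.75 to 6.42 in the RCAs. Acta2, smooth muscle actin, rose by 2.40 and 2.60, and Myh11, the smooth muscle myosin heavy chain, by 2.06 and 3.28. At 48 h, before most collagens rose, 1 of the 7 had risen in each treatment, which was Acta2. All 9 macrophage markers rose at 2 weeks (medians 4.24 and 4.01), and of 4 T cell markers 4 rose in vehicle and 2 in atorvastatin mice (medians 1.51 and 0.44). Of 7 fibroblast markers 1 rose and 4 fell in each treatment (medians -1.62 and -1.17). What part these cells had in the collagen differences was not tested. The 3′ to 5′ signal ratio of Gapdh, a sign of RNA quality, differed between arteries by 0.08, 0.94, -0.38 and 0.20 at 12 h, 24 h, 48 h and 2 weeks in vehicle mice. In atorvastatin mice it differed by 0.67, 0.47, 0.16 and 0.02.

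The change over the 4 times was called by limma's F test for 22 of 27 collagen genes in vehicle mice (32.9% of all genes) and 21 in atorvastatin mice (33.5%), or 21 and 20 without Col2a1. Between 12 and 24 h 0 were called in either treatment, nor was any of the 11344 genes (0.00%); 2 and 1 collagen genes had an unadjusted p under 0.05 in limma. Between 24 and 48 h the difference went up for 5 and down for 7 genes in vehicle mice (15% and 12.7% of all genes, 27.8% together) and up for 5 and down for 2 in atorvastatin mice (11.1% and 13%, 24.1% together). Between 48 h and 2 weeks it went up for 13 and 15 genes (3.68% and 4.28% of all genes) and down for 0 in each (2.08% and 4.05%); 5.76% and 8.32% of all genes changed in either direction. Without Col2a1, whose late level the filter fixed, 12 and 14 genes went up. These times are different mice, and adjacent comparisons share the mice of the time between them.

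No effect of atorvastatin on a collagen gene passed the threshold. The effect on the LCA minus RCA difference gave 0 called collagen genes at 12 h (0.00882% of all genes), 24 h (0.00%), 48 h (0.00%), 2 weeks (0.0176%) and over the mean of the 4 times (0.00%). In the LCA alone 0 were called at each of the 4 times (0.00% of all genes at each). In the RCA alone 0 were called at 12 h (0.0441%), 24 h (0.00%), 48 h (0.00%) and 2 weeks (0.00882%). At an unadjusted p under 0.05 in limma, between 0 and 2 of the 27 genes passed in each of these 13 comparisons. At 2 weeks the effect on the difference was above 0 for 21 of the 27 genes (77.8%, against 41.6% of all tested genes). The counts were 11 at 12 h (40.7%, all genes 48.1%), 7 at 24 h (25.9%, all genes 51.8%) and 20 at 48 h (74.1%, all genes 44.9%), so the sign differed between times. For the mean of the 4 times the count was 21 (77.8%, all genes 41.8%). The genes were measured in the same mice, so these counts are not made of independent values. At 2 weeks the effect was largest for Col6a2, at 0.91 (95% interval -0.54 to 2.36). For Col1a1 it was 0.79 (95% interval -0.99 to 2.57), for Col5a2 0.53 (95% interval -0.04 to 1.10), for Col4a1 0.46 (95% interval -0.04 to 0.96) and for Col4a3 -0.15 (95% interval -1.17 to 0.88). Each of these intervals includes 0. Their median half-width over the 27 genes was 0.84, so smaller effects on a typical member could not be told from 0 with this number of arrays. The intervals are not adjusted for the number of genes, and a call at the adjusted threshold asks for a larger effect. The vehicle side at 2 weeks includes mouse 2, whose median fibrillar difference was -0.095, against 0.63 to 1.305 in the other vehicle mice. Its mean over Col4a1, Col4a2, Col4a5 and Col4a6 was 0.077, against 1.943 to 3.02. How far the share of effects above 0 depends on this mouse was not tested.

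**Figure D5:**
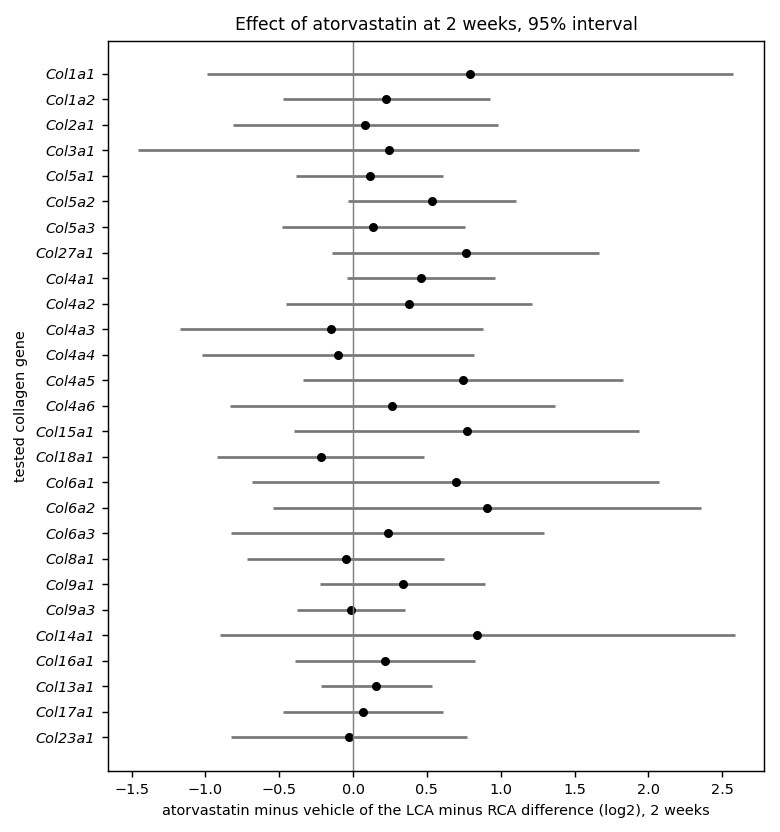
Atorvastatin minus vehicle effect on the LCA minus RCA difference (log2) at 2 weeks for the 27 tested collagen genes, with 95% intervals from the limma fit. Points lie above 0 for 21 genes (77.8%, against 41.6% of all tested genes), and no effect passed the threshold. The vehicle group includes mouse 2, in which most collagen differences were small.

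Genes that process collagen were examined as a list of 37, of which 27 were tested. They comprise chaperones and prolyl or lysyl hydroxylases that act on the nascent chains, proteinases that trim procollagen, lysyl oxidases that cross-link fibrils, and receptors and enzymes of collagen turnover. In vehicle mice 0 rose and 1 fell at 12 h (all genes 1.31% and 1.08%), 0 and 4 at 24 h (7.19% and 7.09%), 5 and 6 at 48 h (20.8% and 15.4%) and 10 and 3 at 2 weeks (15.5% and 12.3%). In atorvastatin mice the counts were 0 and 1 (0.758% and 0.926%), 0 and 5 (7.29% and 5.80%), 5 and 4 (16.6% and 15.2%), and 11 and 3 (14.5% and 15.4%). P4ha3, a catalytic subunit of prolyl 4-hydroxylase, rose by 2.52 at 48 h (SE 0.48, adjusted p = 0.000123) and 5.12 at 2 weeks (SE 0.48, adjusted p = 3.4e-10) in vehicle mice, and by 6.10 at 2 weeks in atorvastatin mice (SE 0.48, adjusted p = 4.16e-12). P4ha2, another catalytic subunit of the same enzyme, went the other way: at 2 weeks it was -1.35 (SE 0.15, adjusted p = 1.18e-08) and -1.63 (SE 0.15, adjusted p = 1.69e-10).

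The cross-linking enzymes Loxl3 and Loxl1 rose at 2 weeks, by 1.85 and 1.55 in vehicle and 2.75 and 2.30 in atorvastatin mice. Lox itself was lower earlier, -1.02 at 24 h and -1.37 at 48 h in vehicle mice. Pcolce2, an enhancer of procollagen C-proteinase, was lower at 2 weeks, at -1.69 and -1.55. The list thus changed in both directions at 2 weeks, with more genes rising than falling, as was so for the collagens.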

How the data were processed

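The values are the deposited log2 expression levels of 45118 probe sets on 78 arrays, made by the authors; the submitters' processing notes name RMA. The sources used here do not name the program, version or probe set definition. RMA gives all arrays a common distribution and compresses low signals. Array medians lay between 4.59 and 4.77, and nothing was normalised again. Names came from the 28898 probe sets with 1 symbol (81 controls were left out, 551 had several symbols and 15588 none). Promoters came from RefSeq (GRCm38.p6).

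The collagen genes and the lists were chosen with earlier results of these data known. The arteries of a mouse were paired through the replicate number in the labels. In the 39 mice the deviations of both arteries from their group means correlated with a median of 0.09, over 0.1 in 19. The LCA minus RCA differences of 8 mouse groups were fitted with limma 3.58.1 in R 4.3.3 (statmod 1.5.0), with Benjamini-Hochberg adjustment over the 11344 genes above the array median on at least 4 arrays. Tests were two-sided, and errors beside adjusted p-values are standard errors of this fit. They rest on a spread shared by the 8 mouse groups. In a group whose mice vary more than the others, the SE and adjusted p-value therefore understate the spread of that group. The procedure was tested on simulated data.

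Values by mouse are given for up to 4 genes of each class with the largest called difference in vehicle mice and for a list fixed with the design: Col1a1, Col1a2, Col3a1, Col4a1, Col4a2, Col4a3, Col6a3, Col8a1, Col15a1 and Col18a1. Of the collagen-processing list, up to 3 of the largest called rises and falls per comparison could be named, and of each marker list up to 3 of its leading genes. Alternatives were a fit without pairing, a fit of the compared groups alone, no filter, other choices of probe set, renewed normalisation, a trended robust prior, the number in the title code as a block, the Gapdh ratio as a covariate and leaving out each mouse. Extraction and profiling were done in 4 batches per the labels, which assign no sample to a batch, so batch and group cannot be told apart.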

Additional observations from a re-analysis of the deposited data

Results flagged for a closer look

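Of 71 groups of 4 or 5 mice examined for a value far from the rest (Dixon's criterion at 95%), 8 had one. Chance flags about 1 in 20 independent groups. These groups are genes measured in the same mice and are not independent, so 8 of 71 cannot be judged against that rate. In vehicle mice at 2 weeks, mouse 1 had an LCA minus RCA difference of 7.92 for Col1a1, where the other 4 mice lay between 1.06 and 2.97, and of 6.24 for Col3a1, where the others lay between 1.18 and 2.23. Its RCA levels of both genes were the lowest of the group, and its LCA levels lay within the range of the other mice. In the same group mouse 2 had differences of 0.33 for Col4a1 (others 1.2 to 1.54) and -0.005 for Col4a2 (others 2.31 to 3.0).

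Col6a3 was less reduced than in the other mice in vehicle mouse 2 at 12 h, at -0.83 (others -2.51 to -2.03), and in vehicle mouse 1 at 24 h, at -1.15 (others -2.38 to -2.14). In atorvastatin mice at 2 weeks Col27a1 rose by 1.32 in mouse 6 (others 3.21 to 3.78). The median over the 25 other collagens was -0.016 in mouse 7 (others 0.11 to 0.17), a median set by genes near the bottom of the measured range.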

How the results depend on the processing

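Without the replicate block, that is without pairing the arteries of a mouse, 46 of the 47 calls of collagen genes shown by mouse were kept, and the number called in vehicle mice at 24 h went from 4 to 2. It was also 2 with the title code as a block and 2 with the Gapdh ratio as a covariate, and ranged from 1 to 4 when a mouse was left out (1 without mouse 3). In vehicle mice at 48 h, 10 were called, and 6 to 12 with a mouse left out (6 without mouse 5). Under atorvastatin at 12 h the 1 call became 0 with the compared groups fitted alone and 0 with the title code as a block, 2 with the mean of all probe sets, and 0 to 1 with a mouse left out (0 without mouse 7). Fitting the compared groups alone moved atorvastatin at 24 h from 3 to 5 and at 48 h from 5 to 0. The title code as a block moved the change over the 4 times in vehicle mice from 22 to 12, and the RCA change in atorvastatin mice went from 5 to between 3 and 6 with a mouse left out (3 without mouse 7 at 2 weeks). The cause of these moves was not tested. At 2 weeks, counts stayed between 16 and 21 in vehicle and between 20 and 21 in atorvastatin mice with a mouse left out; the lowest vehicle count was 15, with the compared groups fitted alone; atorvastatin effects stayed at 0 under every alternative run. Of the 47 calls of genes shown by mouse, 34 held under every alternative, and no direction was reversed. These genes were chosen in part for the largest called differences in vehicle mice, so this share does not stand for the other collagen calls. Among those, calls of Col9a1, Col13a1, Col14a1, Col17a1 and Col23a1 were lost with a mouse left out, as given above. Low signals limit Col1a2, Col2a1, Col5a3, Col27a1, Col9a1, Col9a3, Col13a1 and Col17a1, whose mean levels were at most 4.58, and the 15 genes not tested.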
